A study of Nannochloropsis oceanica with 15 samples.

Results

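The 87 genes described here shared 1 time course in the marine alga Nannochloropsis oceanica. Their transcripts were lower 12 h after a switch from white light to blue or red light, and by 24 h in either colour they stood higher again than at 12 h. They were chosen from the measured values, out of 9756 deposited gene models (0.892%). The unit was FPKM, the fragments counted on a gene model scaled by its length and by a total of the library. Values were taken as log2(FPKM + 1), and the median of its 3 libraries stood for each group. A gene was kept where 12 h minus white 0 h was at most -0.5 and above -3 in both colours and 24 h minus 12 h was at least 0.6 in both colours. Blue 12 h and red 12 h also had to differ by less than 0.4, and the white median had to be at least log2(11), which is 10 FPKM. The fall at 12 h, the recovery to 24 h and the likeness of the colours at 12 h are therefore how the genes were found, and their sizes below are a description.

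Nannochloropsis oceanica is an oil-storing, single-celled stramenopile. Its chlorophyll a absorbs both blue and red light, whereas its main accessory pigments, violaxanthin and vaucheriaxanthin, absorb blue light. Stramenopile algae carry aureochromes, blue-light receptors that are themselves transcription factors, so a switch of light colour can reach transcription both through photosynthesis and through photoreceptors.

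The study sequenced RNA of wild-type IMET1 cells in 5 groups of 3 libraries: white 0 h, blue 12 h, blue 24 h, red 12 h and red 24 h. The cells had been kept in column bioreactors at 25 °C, with air-level CO2 (0.04%) and constant illumination, at a photon flux of 80 ± 5 in µmol per square metre per second. White cells were sampled at the switch and the others 12 h or 24 h after it. White light was analysed here at 0 h only. Light colour and time therefore cannot be told apart in any difference from white, and all 4 such differences share the same 3 white libraries. Whether replicate libraries stem from separate cultures is not in the labels, so p-values reflect only how these libraries vary, which may be technical variation. In bulk RNA, less RNA of a gene per cell and fewer cells that express it cannot be told apart, and each value is a share of the library's RNA.

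The files pair the gene IDs with almost no names, and none of the 87 has one, so the genes are given by ID, position and structure. Between 3130101 and 6442241 fragments per library fell in gene models, and median FPKM ran from 17.8 to 25.0 over the libraries. White library 1 had a median of 20.3 FPKM, against 24.7 and 25.0 in white libraries 2 and 3. Red 24 h library 1 stood apart from its group. Over the models passing the low-value filter below, its log2 values correlated at 0.928 with red 24 h library 2 and 0.907 with library 3. Libraries 2 and 3 correlated at 0.984 with each other. Libraries of the other 4 groups correlated within their group at 0.990 to 0.993. Values of red 24 h are given for all 3 libraries, and the main ones also without it. All 87 genes passed the filter on low values (3 or more libraries with FPKM of 1 or more), as did 9601 models (98.4%).

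The dip was deep in most of the 87 genes and close to equal in both colours. Over the list the median level was 36.8 FPKM in white. Under blue light it was 10.8 FPKM after 12 h and 19.6 FPKM after 24 h, and under red light 11.5 FPKM after 12 h and 20.9 FPKM after 24 h. The medians over all tested genes stayed between 22.4 and 24.4 FPKM in the 5 groups. On the log2 scale the difference of 12 h from white had a median of -1.98 in blue (range -2.99 to -0.58) and of -1.91 in red (-2.93 to -0.73). Over all tested genes the medians of these differences were 0.10 in blue and 0.13 in red. The dip was at least 1 on the log2 scale in 73 genes in blue and 73 in red, and 71 of these were shared.

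The libraries of 12 h and white separated in every gene of the list. All 3 blue 12 h libraries lay below all 3 white libraries in 87 of 87 genes, and so did all 3 red 12 h libraries. Among tested genes such a fall without overlap was found for 30.1% in blue and 28.8% in red. The rule required the fall, so these counts describe only how cleanly it showed in single libraries.

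The rise by 24 h was smaller than the dip. Blue 24 h lay above blue 12 h by a median of 0.81 on the log2 scale (0.60 to 1.65), and red 24 h above red 12 h by 0.85 (0.60 to 1.64), or by 0.88 (0.48 to 1.54) without red 24 h library 1. Over all tested genes both medians were within 0.02 of 0, at 0.01 in blue and -0.01 in red. The rise reached 1 in 19 genes in blue, 27 in red and 9 in both. The 3 blue 24 h libraries lay above all 3 blue 12 h libraries in 84 genes (26.3% of tested genes). In red light the 24 h libraries lay above all 12 h libraries in 68 genes (18.3% of tested genes). Red 24 h libraries 2 and 3 alone lay above all red 12 h libraries in 85 genes. This count compares 2 libraries with 3, and its share over all tested genes was not counted, so it cannot be set beside the 68. The rule required the rise in both colours.

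**Figure D1:**
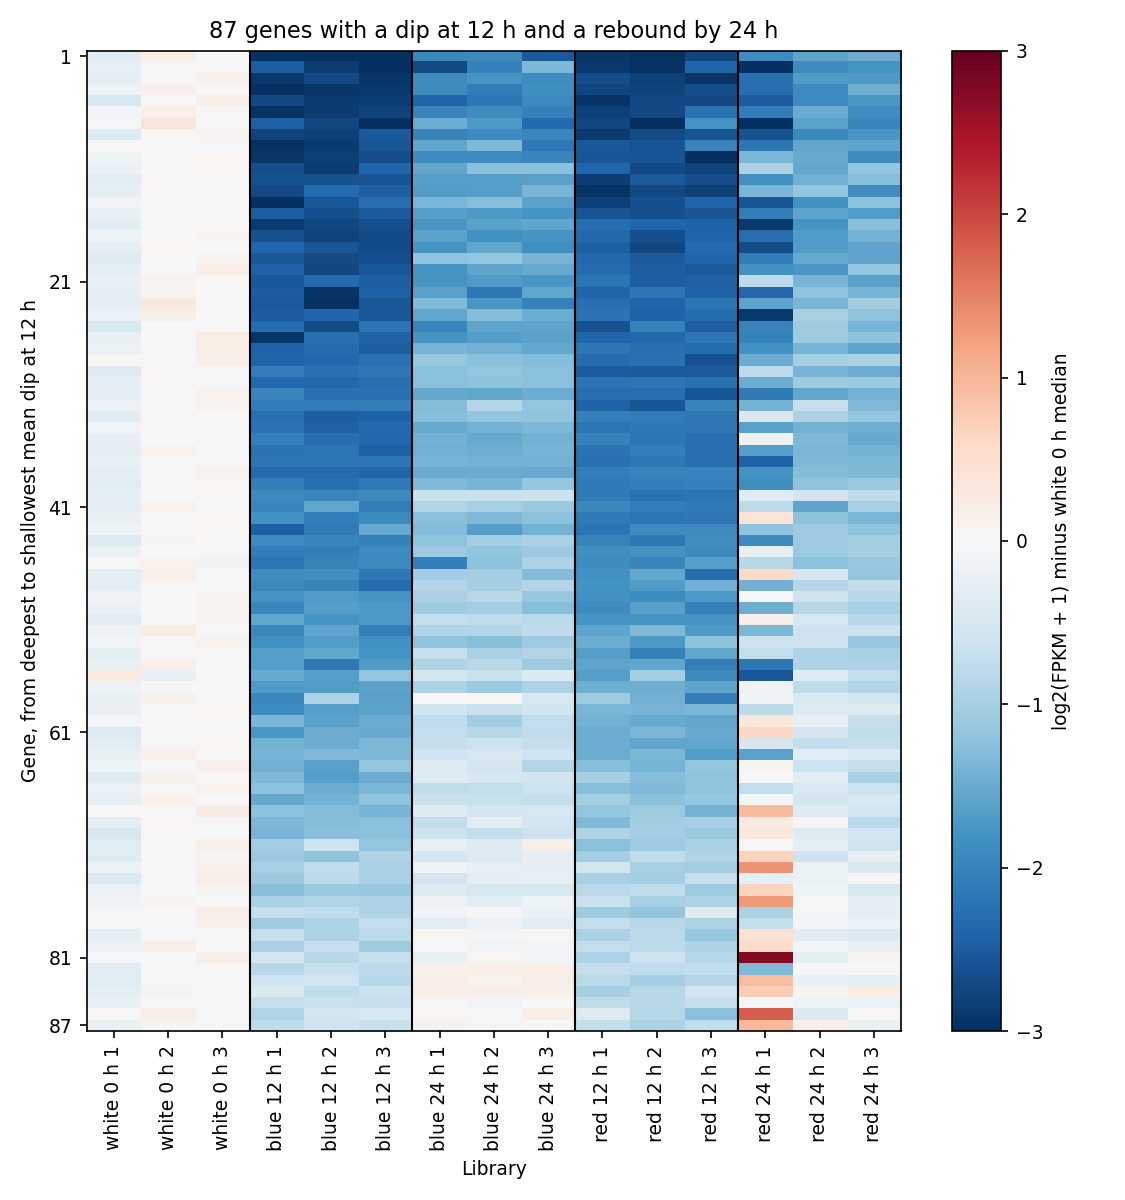
Each row is 1 of the 87 genes, from the deepest mean dip at the top to the shallowest at the bottom, and each column is 1 of the 15 libraries, in the order white 0 h, blue 12 h, blue 24 h, red 12 h and red 24 h. The colour gives log2(FPKM + 1) minus the gene's median over the 3 white libraries. The 6 libraries of 12 h lie below white in every row, the 24 h libraries lie between them and white in most rows, and red 24 h library 1 departs from its group in both directions.

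The rule's parts were met by very unequal numbers of genes. A dip was found in 2130 genes in blue and 2046 in red, and in 1757 in both. A rebound was found in 485 genes in blue and 819 in red, and in 234 in both. The mirror image, a rise of at least 0.5 and under 3 at 12 h and a fall of at least 0.6 by 24 h under the same other limits, was met by 13 genes. A further 268 genes met all parts but 1. Of these, 134 missed the rebound in blue, 89 missed it in red, 20 the likeness at 12 h, 14 the white level, 8 the dip in blue and 3 the dip in red.

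The thresholds cut through a continuum for the rebound. The rebound nearest inside the limit was 0.600 in blue and 0.604 in red, and the nearest outside was 0.598 in blue and 0.597 in red. For the difference between colours at 12 h the nearest values were 0.379 inside and 0.480 outside. The white median nearest inside was 3.54 on the log2 scale and the nearest outside 3.44. At the limit of -0.5 on the dip, the nearest values inside were -0.58 in blue and -0.73 in red. The nearest outside was -0.45 in red, and 0 genes missed only this limit in blue. At the limit of -3 the nearest values were -2.99 inside and -3.06 outside in blue, and -2.93 inside and -3.15 outside in red. All 8 genes that missed only the dip in blue lay beyond -3, as did 1 of the 3 that missed it in red.

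Most genes that dipped alike in both colours did not rebound. Of 1303 genes that met the dip, the likeness at 12 h and the white level, 87 rebounded in both colours (6.68%), 89 only in blue (6.83%), 134 only in red (10.3%) and 993 in neither (76.2%). The 993 had a median difference from white of -1.12 in blue 12 h and -1.08 in red 12 h. At 24 h these medians were -1.03 in blue and -1.10 in red. The median summed exon length of the 993 was 2092 nt, against 1568 nt in the 87. It was 1835 nt in genes that rebounded only in blue and 1533 nt in those only in red. Red 24 h library 1, whose departure from its group moved with model length (described below), entered the rebound in red. Its part in these lengths was not tested.

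How much of the dip was regained by 24 h varied widely between the 87 genes. The rise as a share of the dip, both from group medians on the log2 scale, had a median of 46.3% in blue (23.7% to 132.9%) and of 48.4% in red (25.5% to 128.3%). The median in red was 49.9% (31.4% to 119.7%) without red 24 h library 1. At least 50% was regained by 35 genes in blue, 41 in red and 32 in both. Less than 50% was regained by 52 genes in blue, 46 in red and 43 in both.

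Genes with a shallow dip came closest to their white level. The 26 genes whose mean dip over both colours was shallower than 1.5 regained a median of 73.7% in blue and 76.9% in red. In the 61 with a deeper dip the medians were 38.0% in blue and 42.9% in red. In the 20 with a dip of 2.5 or deeper they were 35.4% in blue and 32.6% in red. Because the rule asks for the same minimum rise of 0.6 at every depth, it fixes a higher minimum share for a shallow dip than for a deep one, and this order is a description.

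**Figure D2:**
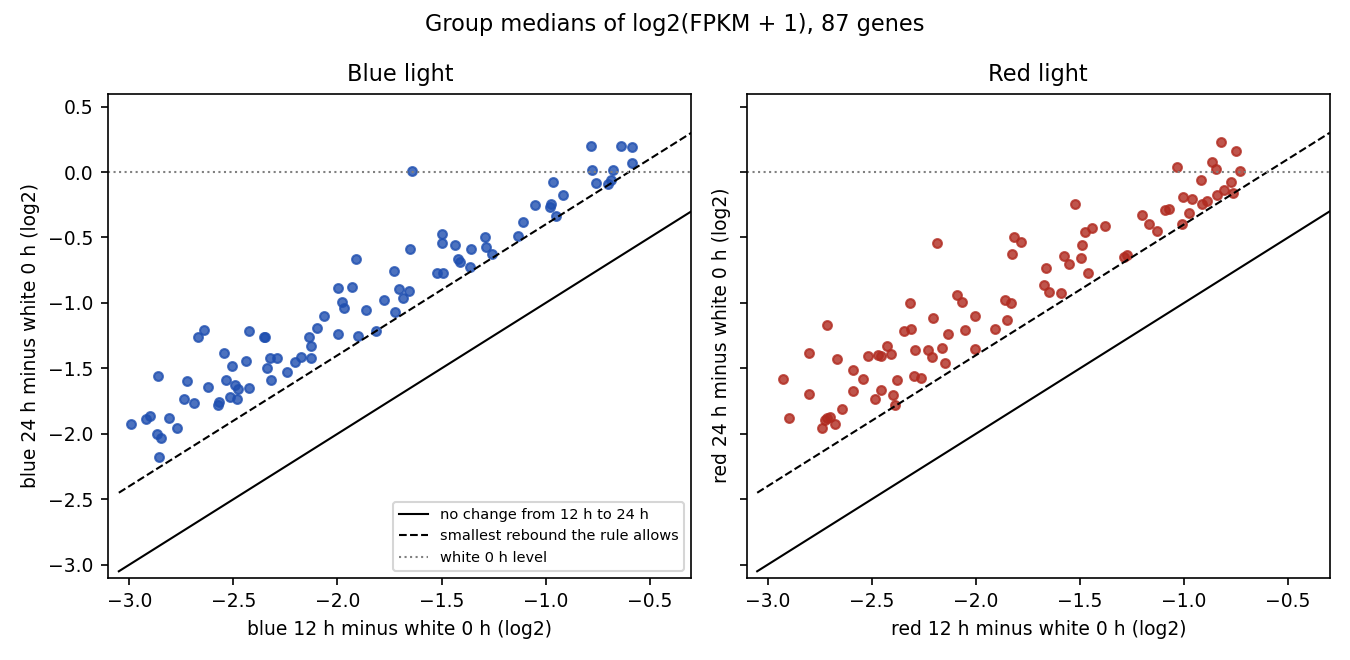
Each point is 1 of the 87 genes, with the difference of 12 h from white 0 h on the horizontal axis and that of 24 h from white 0 h on the vertical axis, in log2 of group medians, for blue light on the left and red light on the right. Points at or above 0 on the vertical axis are the 7 genes in blue and the 6 in red whose 24 h median reached the white median, and all but 1 of these 13 points had a mean dip shallower than 1.5.

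In 9 genes the 24 h median reached the white median in at least 1 colour. It did so in 7 genes in blue, 6 in red and 4 in both. In red it did so in 2 without red 24 h library 1, scaffold00096.g3627 and scaffold00350.g9954. The 4 were scaffold00080.g2543, scaffold00096.g3627, scaffold00214.g6287 and scaffold00350.g9954, the last named after its values were seen. Only scaffold00328.g9119, also named after its values were seen, reached it from a mean dip deeper than 1.5, and in blue alone. It had 16.5, 21.4 and 19.5 FPKM in white, 4.38, 9.69 and 5.58 FPKM in blue 12 h, and 19.6, 19.9 and 13.6 FPKM in blue 24 h. Its blue 24 h and white libraries overlapped.

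The level at 24 h against white was tested with limma on log2(FPKM + 1), with adjustment over all 9601 tested genes. The rule did not use this difference itself, but it used the white and the 24 h libraries through the dip and the rebound. As a difference of group medians, the rule's limits hold it above -2.4 and set no upper limit, whereas limma compares group means. The test therefore describes how far from white the genes stood at 24 h, and the counts are no independent evidence of a direction. The same holds for the p-values of single genes below that were named by their dip, their white level or this difference itself.

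At 24 h most of the 87 genes were still below white. In blue 24 h, 64 genes passed the limma test as lower than in white (73.6%), and 0 as higher. Among all tested genes 23.9% were called lower and 31.1% higher in blue 24 h. In red 24 h, 58 genes passed as lower (66.7%) and 1 as higher, against 30.1% lower and 28.8% higher among all tested genes. The median log2 difference from white over the 87 was -1.09 in blue 24 h (-2.08 to 0.29) and -1.06 in red 24 h (-2.30 to 0.81), beside 0.14 in blue and -0.01 in red over all tested genes. Scaled to the same sum of FPKM without the 50 most abundant genes, the median over all tested genes moved to -0.03 in blue and -0.31 in red, and that over the 87 to -1.26 in blue and -1.34 in red. That scaling also turned the split of all calls, to 2068 higher and 2719 lower in blue 24 h (2982 and 2294 as deposited) and to 1675 higher and 3932 lower in red 24 h (2766 and 2891 as deposited). Standard errors of these differences ran from 0.10 to 0.51 with a median of 0.19. With all libraries, a gene has the same standard error in every comparison, because its spread was estimated once over all groups. Red 24 h library 1 therefore also enters the standard errors and p-values of blue 24 h against white. By single libraries, all 3 blue 24 h libraries lay below all white ones in 72 genes (29.1% of tested genes). All 3 red 24 h libraries did so in 56 genes (27.5% of tested genes). The 24 h libraries lay above all white ones in 3 genes in blue (42.8% of tested genes) and in 1 in red (26.3% of tested genes). The 3 were scaffold00096.g3627, scaffold00277.g8242 and scaffold00350.g9954, the first of which was also the 1 in red, and the other 2 are named after their values were seen.

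The calls in blue and in red fell largely on shared genes, and both comparisons use the same white libraries. The rule also held the colours close at 12 h and asked for a rise in both, so shared calls were favoured by the choice of genes. The share of all tested genes called lower in both colours was not counted, so the shared counts below are a description. Both 24 h groups were called lower than white in 56 genes, blue alone in 8 and red alone in 2. The 2 were scaffold00097.g3754 and scaffold00140.g4653, named after their values were seen, and in both of them red 24 h library 1 was the lowest of its group. In 21 genes neither colour was called lower. Without red 24 h library 1, limma called 72 of the 87 lower and 3 higher in blue 24 h. In red 24 h it called 71 lower and 0 higher, with 69 lower in both colours and 13 lower in neither. Among all 9601 tested genes this setting gave 2820 lower and 4017 higher in blue 24 h. For red 24 h it gave 2830 lower and 3619 higher. The median difference of red 24 h from white over the 87 was then -0.97, beside 0.09 over all tested genes.

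**Figure D3:**
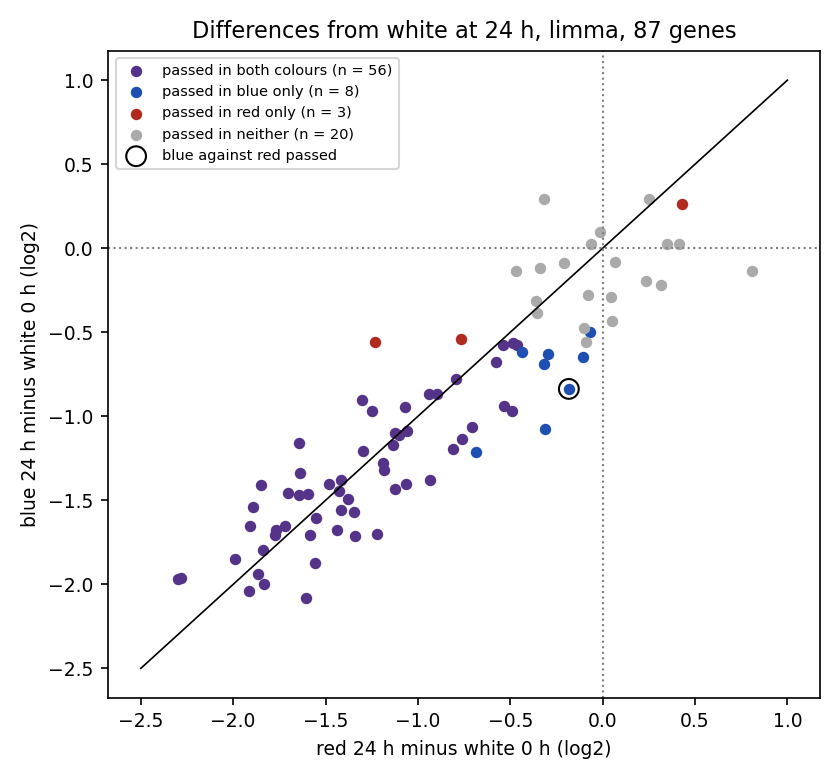
Each point is 1 of the 87 genes, with the limma log2 difference of red 24 h from white 0 h on the horizontal axis and of blue 24 h from white 0 h on the vertical axis, and colours marking which differences passed an adjusted p of 0.05. Most points lie in the lower left, where 56 genes were called lower in both colours.

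By the mean of the limma differences of both 24 h groups from white, scaffold00096.g3627 and scaffold00043.g1582 stood highest. By group medians scaffold00096.g3627 was also highest, followed by scaffold00350.g9954, scaffold00080.g2543 and scaffold00214.g6287, and scaffold00043.g1582 came behind these. scaffold00096.g3627 (IMET v2 models, positions 486209 to 488214, minus strand, 6 exons of 1149 nt in all) had 39.3, 51.4 and 48.7 FPKM in white libraries 1 to 3. In blue it had 35.7, 28.2 and 30.9 FPKM at 12 h and 56.1, 56.4 and 54.6 FPKM at 24 h. Under red light it had 24.1, 27.1 and 32.0 FPKM at 12 h and 81.6, 52.0 and 57.5 FPKM at 24 h. All 24 h libraries lay above all white ones, and the 12 h libraries below them. It was the only member called higher than white, by 0.43 ± 0.17 in red 24 h (log2 ± SE, limma adjusted p = 0.0384). Without red 24 h library 1 the difference was 0.24 with a limma adjusted p of 0.105, and the call was lost in 10 of 21 alternatives, among them those without white library 1 or 3 or any 1 of the blue 24 h libraries, over which the limma adjusted p ran from 0.0143 to 0.466. In blue 24 h it stood 0.27 ± 0.17 above white (limma adjusted p = 0.194), and without red 24 h library 1, which enters the shared estimate of spread, this passed (limma adjusted p = 0.0429).

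scaffold00043.g1582 (134036 to 134951, minus strand, 3 exons of 647 nt) had its 24 h level in red set by 1 library. Its red 24 h libraries had 270.4, 32.6 and 41.5 FPKM, against 38.0, 39.4 and 44.8 FPKM in white. In blue it had 26.7, 21.5 and 23.8 FPKM at 12 h and 33.8, 40.3 and 37.0 FPKM at 24 h, and in red 12 h 19.7, 25.0 and 21.1 FPKM. The 24 h and white libraries overlapped in both colours. The difference of red 24 h from white was 0.81 ± 0.51 (limma adjusted p = 0.190) with all libraries and -0.14 ± 0.13 without red 24 h library 1 (limma adjusted p = 0.36). Without library 2 in its place it was 1.37 ± 0.49 (limma adjusted p = 0.0267).

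By the same mean of limma differences, scaffold00247.g6771 and scaffold00317.g8851, both with 1 exon, stood furthest below white at 24 h. By group medians scaffold00354.g10301, named after its values were seen, was lowest (mean of both colours -2.03), followed by scaffold00317.g8851 (-1.96). scaffold00247.g6771 (661762 to 662366, plus strand, 605 nt) had 28.8, 39.8 and 30.0 FPKM in white. It had 4.69, 3.64 and 1.39 FPKM in blue 12 h, which were 9, 9 and 3 fragments, and 10.0, 8.34 and 5.13 FPKM in blue 24 h. In red it had 3.64, 2.72 and 8.0 FPKM at 12 h and 2.88, 9.22 and 6.99 FPKM at 24 h. Every library of 12 h and 24 h lay below every white one, while the 12 h and 24 h libraries overlapped in red. The log2 difference from white was -1.97 ± 0.40 in blue 24 h (limma adjusted p = 0.000723) and -2.30 ± 0.40 in red 24 h (limma adjusted p = 0.000179). That in red was -1.89 ± 0.32 without red 24 h library 1 (limma adjusted p = 1.59e-05).

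scaffold00317.g8851 (1 to 841, minus strand) begins at the first base of its scaffold, so its model may be cut short there. It had 11.7, 14.6 and 14.0 FPKM in white. In blue it had 1.72, 1.08 and 0.615 FPKM at 12 h, from 5, 4 and 2 fragments, and 1.33, 2.65 and 4.87 FPKM at 24 h. Its red libraries had 1.01, 0.901 and 1.87 FPKM at 12 h and 0.481, 3.06 and 3.28 FPKM at 24 h. The 12 h and 24 h libraries overlapped in both colours, and the count behind the 12 h values is too small to fix the size of the rise. Against white the log2 difference was -1.96 ± 0.39 in blue 24 h (limma adjusted p = 0.000515) and -2.28 ± 0.39 in red 24 h (limma adjusted p = 0.000129), or -1.78 ± 0.29 in red 24 h without library 1 (limma adjusted p = 8.15e-06).

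Low counts at 12 h were common in the list. Over the 87 genes the fragments recovered per 12 h library ran from 2 to 1429 with a median of 74, whereas the median in white was 432 and the lowest 38. In 29 genes at least 1 library of 12 h held fewer than 30 fragments.

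The deepest dips were those of scaffold00096.g3596 and of scaffold00317.g8851, described above. scaffold00096.g3596 (408686 to 410464, minus strand, 2 exons of 1694 nt) had a mean dip of -2.96 on the log2 scale. It had 58.4, 82.6 and 72.9 FPKM in white, 6.62, 8.38 and 8.30 FPKM in blue 12 h, and 18.4, 18.6 and 11.8 FPKM in blue 24 h. In red it had 8.72, 7.03 and 9.95 FPKM at 12 h and 19.1, 23.7 and 25.2 FPKM at 24 h. The 3 times did not overlap in either colour. At 24 h it was still lower than white, with a log2 difference of -2.08 ± 0.19 in blue (limma adjusted p = 2.81e-07) and -1.61 ± 0.19 in red (limma adjusted p = 4.74e-06), or -1.49 ± 0.18 in red without library 1 (limma adjusted p = 1.05e-07).

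The shallowest dips were those of scaffold00080.g2543 and scaffold00214.g6287. scaffold00080.g2543 (184402 to 186123, minus strand, 4 exons of 1229 nt) had 76.3, 93.4 and 87.8 FPKM in white, 51.5, 57.9 and 54.5 FPKM in blue 12 h and 82.4, 90.1 and 88.8 FPKM in blue 24 h. Red light gave 53.4, 44.6 and 51.9 FPKM at 12 h and 174, 98.3 and 76.0 FPKM at 24 h. Its 24 h and white libraries overlapped in both colours, and limma called neither difference. Without red 24 h library 3, red 24 h passed as higher than white by 0.61 ± 0.19 (limma adjusted p = 0.0104).

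scaffold00214.g6287 (704105 to 705319, minus strand, 5 exons of 786 nt) had 18.4, 21.1 and 17.9 FPKM in white. In blue it had 9.32, 12.0 and 13.0 FPKM at 12 h and 19.3, 17.8 and 21.4 FPKM at 24 h. In red it had 13.5, 9.78 and 7.10 FPKM at 12 h and 67.3, 13.3 and 18.7 FPKM at 24 h. Its 24 h libraries also overlapped with white, and red 24 h overlapped with red 12 h. Limma called neither 24 h difference from white.

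The most abundant genes of the list in white were scaffold00113.g4091 and scaffold00145.g4962, by FPKM, which is a level per length. scaffold00113.g4091 (2464 to 3341, minus strand, 1 exon of 878 nt) had 958, 1116 and 1164 FPKM in white, 315, 262 and 298 FPKM in blue 12 h and 468, 445 and 477 FPKM in blue 24 h. Red values were 255, 247 and 253 FPKM at 12 h and 1459, 473 and 433 FPKM at 24 h. The blue libraries of the 3 times did not overlap, whereas red 24 h held both the highest value of all and values below every white one. The difference of blue 24 h from white was -1.21 ± 0.31 in log2 (limma adjusted p = 0.00402). Without red 24 h library 1, which enters the shared estimate of spread, it was -1.21 ± 0.08 (limma adjusted p = 3.7e-12). The difference of red 24 h from white was -0.69 ± 0.31 with all libraries (limma adjusted p = 0.0719). It was -1.25 ± 0.09 without red 24 h library 1 (limma adjusted p = 2.82e-11). Without library 3 in its place, blue 24 h passed as lower than red 24 h, with a difference of -0.84 ± 0.30 (limma adjusted p = 0.0419).

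scaffold00145.g4962 (358296 to 359920, plus strand, 2 exons of 1269 nt) had 594, 716 and 729 FPKM in white. In blue it had 190.4, 181 and 190.0 FPKM at 12 h and 451, 448 and 461 FPKM at 24 h. The red libraries gave 163, 150.5 and 157 FPKM at 12 h and 565, 491 and 424 FPKM at 24 h. No library of 1 time overlapped with those of another in either colour, and the rebound in red, 1.64 on the log2 scale, was the highest of the 87. At 24 h its log2 difference from white was still -0.58 ± 0.12 in blue (limma adjusted p = 0.000634) and -0.46 ± 0.12 in red (limma adjusted p = 0.00305). The call in red was lost in 2 of 21 alternatives, at -0.31 with libraries scaled to the same median FPKM (limma adjusted p = 0.0679) and at -0.46 with only the 6 libraries compared (limma adjusted p = 0.117), while over all 21 the lowest was 4.32e-09. It was -0.57 ± 0.09 without red 24 h library 1 (limma adjusted p = 7.22e-06).

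**Figure D4:**
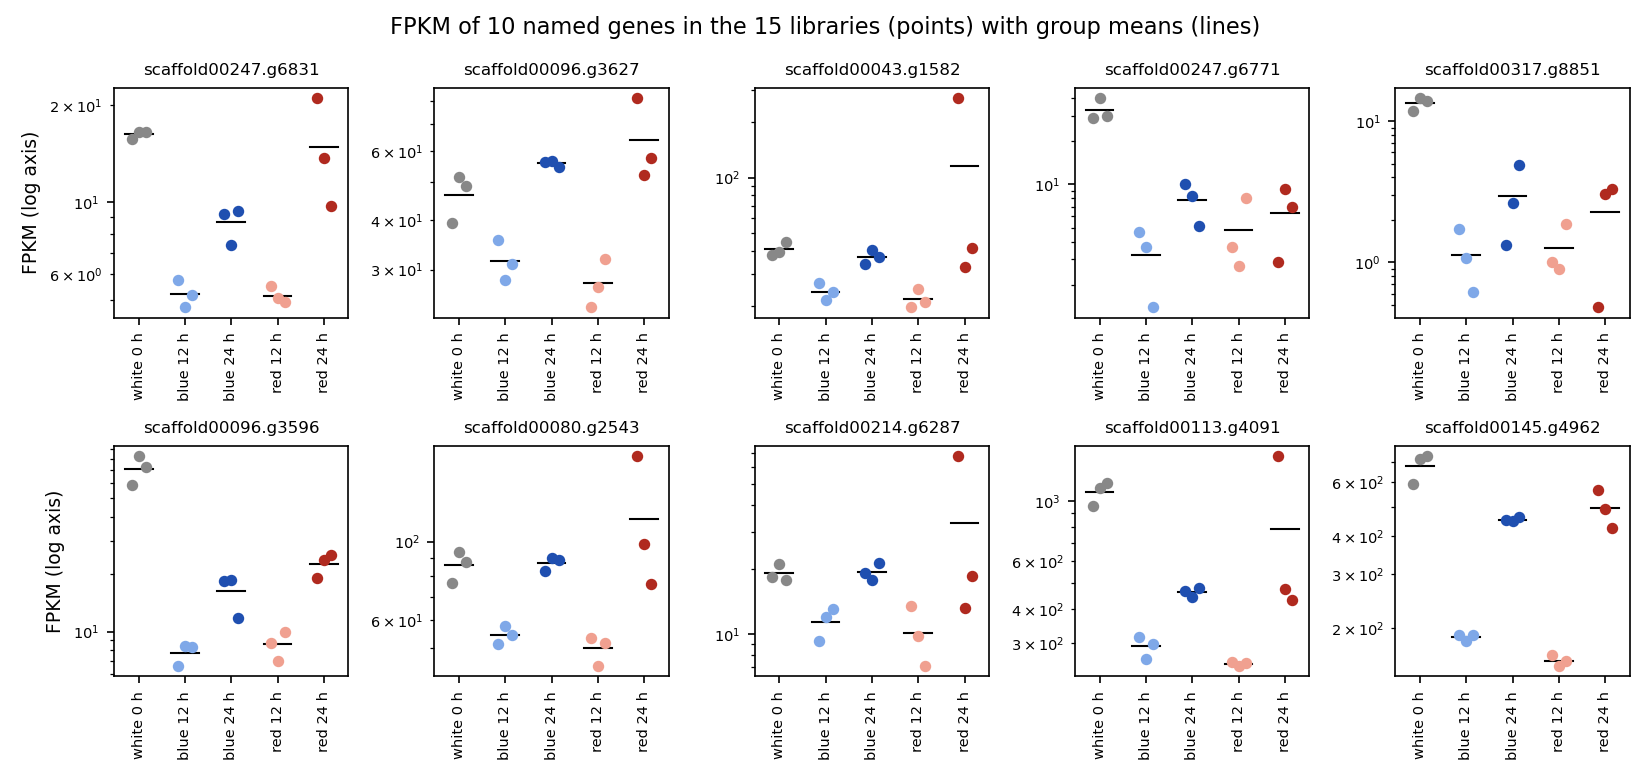
Each panel shows 1 of 10 named genes, with FPKM on a log axis, a point for each of the 15 libraries and a line for the group mean, in the order white 0 h, blue 12 h, blue 24 h, red 12 h, red 24 h. In scaffold00145.g4962 the groups separate cleanly, whereas in scaffold00043.g1582, scaffold00113.g4091 and scaffold00214.g6287 the mean of red 24 h is drawn up by 1 library.

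Between the colours at 24 h, 1 of the 87 genes passed the limma test. In blue 24 h against red 24 h limma called 0 of the 87 genes higher and 1 lower (1.15%), beside 5.67% higher and 6.34% lower among all tested genes. The log2 difference had a median of -0.08 over the 87 (-0.94 to 0.67) and of 0.08 over all tested genes. An unadjusted limma p under 0.05 was found for 13 of the 87, beside 3039 of all 9601 tested genes. With the same scaled sum the median over the 87 was 0.04, on the other side of 0, and that over all tested genes 0.20. The rule narrows this difference, because it holds the colours close at 12 h and asks for a rise in both, so a low count was favoured by the choice of genes. By single libraries, all blue 24 h values lay below all red 24 h values in 10 genes (13.9% of tested genes) and above them in 2 (17.6% of tested genes).

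The 1 gene called was scaffold00247.g6831 (799819 to 802102, plus strand, 3 exons of 2088 nt). It had 15.7, 16.4 and 16.5 FPKM in white, 5.76, 4.75 and 5.18 FPKM in blue 12 h and 5.51, 5.07 and 4.92 FPKM in red 12 h. At 24 h it had 9.23, 7.41 and 9.42 FPKM in blue and 21.0, 13.7 and 9.78 FPKM in red. All blue 24 h libraries lay below all red 24 h ones, but the highest blue value and the lowest red value were close, and the red libraries spread most. The difference was -0.65 ± 0.20 in log2 (limma adjusted p = 0.0471). It was -0.39 without red 24 h library 1 (limma adjusted p = 0.101). The call was lost in 17 of 21 alternatives, which include leaving out any 1 library but red 24 h library 3. Over the 21 the limma adjusted p ran from 0.00251 to 0.335. Outside the 21 the call held without an eBayes trend, without a filter and with a filter at 5 FPKM (limma adjusted p = 0.0441, 0.0487 and 0.0459). It was lost with each library's trend with exon length removed and with voom on recovered fragments. Against white the difference was -0.84 ± 0.20 in blue 24 h (limma adjusted p = 0.00241) and -0.18 ± 0.20 in red 24 h (limma adjusted p = 0.452). Without red 24 h library 1 that in red was -0.45 ± 0.16 and passed (limma adjusted p = 0.0166).

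The count of differences between the colours at 24 h turned on single red 24 h libraries. Limma called 4 of the 87 genes without red 24 h library 1, 2 without library 2 and 22 without library 3. The 4 were scaffold00043.g1868 (-0.53) and scaffold00096.g3596 (-0.59), lower in blue, and scaffold00252.g7159 (0.39) and scaffold00277.g8242 (0.43), higher in blue. The 2 were scaffold00245.g6451 (0.59) and scaffold00350.g9954 (0.83), both higher in blue, and those of the 6 outside the naming rule were named after their values were seen. Leaving out any 1 of the 12 libraries outside red 24 h gave 0. Calls over all 9601 tested genes moved too. Without red 24 h library 1 limma called 682 higher and 1058 lower in blue. Without library 2 it called 859 higher and 667 lower, and without library 3 it called 2011 higher and 1382 lower. With 1 of the 12 left out it called 169 to 601 higher and 288 to 660 lower.

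Red 24 h library 1 departed from its group in most of the 87 genes, and in both directions. It lay above both other red 24 h libraries in 39 genes, below both in 45 and between them in 3. It was at least 1 above the mean of the other 2 on the log2 scale in 11 genes and at least 1 below in 12. It exceeded the highest white library in 19 genes, whereas libraries 2 and 3 did so in 2 each. The shares of all tested genes were not counted for these, so the counts cannot be read as particular to the 87. The difference of library 1 from the mean of the other 2 had a median of -0.192 over the 87, beside -0.325 over all tested genes. Relative to the red 12 h median, the median rise was 0.82 in library 1 (-0.89 to 3.62), 0.87 in library 2 (0.30 to 1.72) and 0.87 in library 3 (0.23 to 1.54). Over all tested genes these medians were -0.287, 0.022 and 0.007. The 3 blue 24 h libraries gave 0.81, 0.83 and 0.82 against the blue 12 h median, beside 0.008, 0.015 and 0.009 over all tested genes. The rule required a rise of the group median in both colours.

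The departure moved with the length of the model, in the 87 genes as in all tested genes. In the 22 genes of up to 1000 nt library 1 was higher than the mean of the others by a median of 0.78, beside 0.15 in tested genes of that length. In the 36 genes over 1000 and up to 2000 nt the median was -0.14, beside -0.21. In the 29 longer ones it was -0.45, beside -0.51. Length also moved with the depth of the dip. The 26 genes with a dip shallower than 1.5 had a median length of 1122 nt and a median departure of 0.67, and the 61 with a deeper dip had 1841 nt and -0.41. The mean fragment length recovered was 128.6 nt in this library and 135.5 to 148.0 nt in the other 14. The part of length in the red 24 h values was not tested for single genes.

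**Figure D5:**
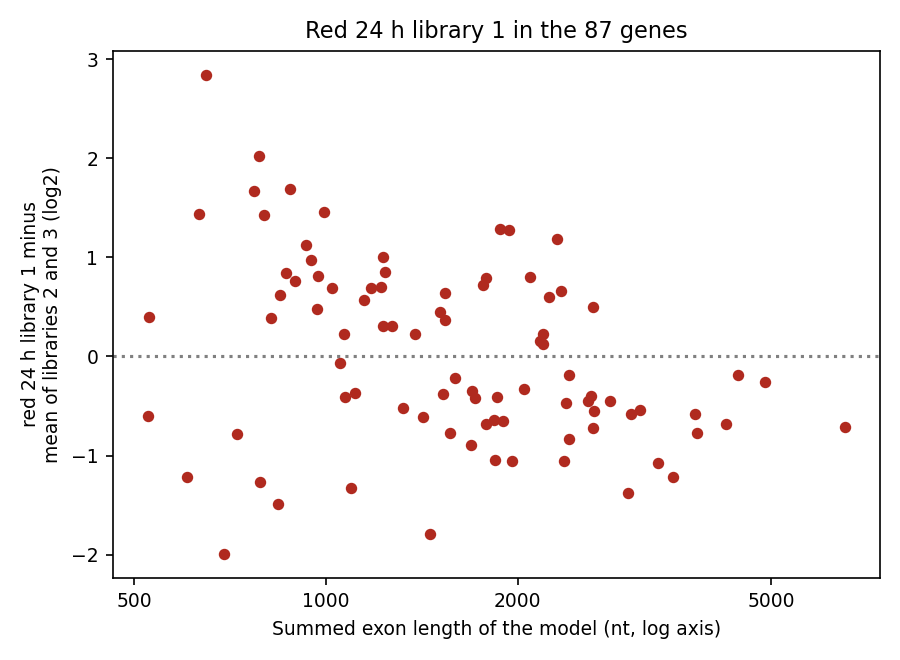
Each point is 1 of the 87 genes, with the summed exon length of its model in nt on a log axis and, on the vertical axis, red 24 h library 1 minus the mean of red 24 h libraries 2 and 3 in log2(FPKM + 1). The line at 0 marks no departure, and short models lie mostly above it and long ones mostly below.

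The 87 genes were spread over the genome assembly. They lay on 35 of the 284 scaffolds, with at most 7 on a scaffold, on scaffold00009, scaffold00043 and scaffold00247. On the plus strand lay 51 and on the minus strand 36. A single exon made up 28 of the models (32.2%), beside 30.7% of tested genes, and the median number of exons was 3, beside 2. The median exon length was 1568 nt (525 to 6527 nt), beside 1722 nt in tested genes.

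In 3 places 2 of the 87 genes were direct neighbours, out of 9472 neighbouring pairs of models. The pairs were named after their values were seen. scaffold00069.g2416 and scaffold00069.g2417 lie on the same strand with 125 bp between them. scaffold00080.g2568 and scaffold00080.g2569, and likewise scaffold00247.g6771 and scaffold00247.g6772, face each other with ends 6 bp apart. This gap recurs in the gene models, in 194 of the 3191 neighbouring pairs that face each other. The sources used here do not say whether the libraries kept the strand, so reads where such genes meet cannot be assigned to 1 of them. Of the 163 tested neighbours outside the list, 28.8% met the dip in blue and 28.8% in red, beside 21.9% and 21.1% of all tested genes. The rebound was met by 8.59% of the neighbours in blue and 13.5% in red, beside 5.03% and 8.51%.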

How the data were processed

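Per the labels' protocols, total RNA was extracted with Trizol and made into TruSeq libraries. The authors deposited FPKM values for 9756 gene models (named IMET v2, each with 1 transcript) in 1 table per group. TopHat, TopHat2 2.0.4 and Cufflinks 2.0.4 are named per the submitters' processing notes. Genome build, read layout, strand and the library total behind the FPKM are not given in the sources used here. The third red 12 h library was taken through its sample name, because a column name repeats.

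The FPKM were not rescaled. Limma 3.58.1 (R 4.3.3) was fitted to log2(FPKM + 1) of all 15 libraries with a mean per group and an eBayes trend, for the 9601 genes at 1 FPKM or more in 3 or more libraries. Fold changes on this scale understate changes of low genes. The 3 comparisons among blue 24 h, red 24 h and white 0 h were two-sided. In each, p-values were adjusted by Benjamini-Hochberg over all 9601 genes and called at 0.05. The contrasts that chose the genes were not tested. The fit was tested on simulated data. Python 3.11.15, numpy 2.4.6 and pandas 2.3.3 did the rest.

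Whole fragments were recovered from FPKM times exon length less mean fragment length. Within 0.1, 100% of the values of at most 30 fragments in models of 500 nt effective length or more came out whole. They give depth and replicate checks and 1 alternative test.

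The members, lists and rules were chosen with earlier results of these data known. Named genes were those passing in blue 24 h against red 24 h (up to 2 per direction), the 2 highest and 2 lowest at 24 h against white, the 2 deepest and 2 shallowest dips and the 2 highest in white. Their 21 alternatives were each library left out, a pseudocount of 0.1, the other scalings, only the 6 libraries compared and the replicate block. Not among the 21 were changes of filter or eBayes trend, array weights, removal of the length trend and voom. The 160 names of the reference table (assembly ASM5162214v2) matched 0 IDs, so lists of pathway genes could not be counted and no sequence is shown. Positions count from 1 on the scaffold in the ID.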

Additional observations from a re-analysis of the deposited data

Results flagged for a closer look

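Scaffold00247.g6831 differed between the colours at 24 h. Blue 24 h minus red 24 h was -0.654 on the log2 scale, with limma past the threshold, from 9.23, 7.41 and 9.42 FPKM in blue 24 h and 21.0, 13.7 and 9.78 FPKM in red 24 h. It was the only one of the 87 genes that passed, and the call was lost in 17 of 21 alternatives, which include leaving out any 1 of the 15 libraries other than red 24 h library 3.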

How the results depend on the processing

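Of 104 alternative counts, 83 stayed within 1.5 times the reported one. The members numbered 87 and, with 22 of 23 alternatives, 70 to 107 (76 to 92 with 1 library left out), but only 9 with a dip and a rebound of at least 1. Without red 24 h library 2 or 3, 62 and 64 of the 87 still met the rule. Calls against white numbered 64 for blue 24 h (61 to 78 over all alternatives) and 59 for red 24 h (48 to 81). In blue 24 h against red 24 h the count was 1. It was 49 with limma's array weights, whose estimation stopped before it converged, 4 with quantile normalization and 3 at the same median FPKM. With only the 6 libraries compared it was 0, and with 1 library left out 0 to 22. Calls over all 9601 tested genes moved as well, from 544 higher and 609 lower in blue. They were 3018 and 3360 with array weights and 903 and 848 with quantile normalization. The same median gave 699 and 1109, and the 6 libraries compared gave 9 and 35. Chosen after seeing the data were removal of each library's trend with exon length, which gave 0, and voom on recovered fragments, which gave 1 (another gene, scaffold00245.g6451). Over all tested genes the removal gave 767 higher and 652 lower, and voom gave 1174 higher and 584 lower. The cause of these changes was not tested.

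The replicate numbers did not pair the libraries, since deviations of same-numbered libraries correlated at -0.063 to 0.059. With the replicate block limma called 1 gene in blue 24 h against red 24 h, 63 for blue 24 h against white and 58 for red 24 h against white, the last without scaffold00096.g3627.

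Some named genes changed sign in differences that were not called with all libraries. For blue 24 h minus red 24 h with 1 library left out, the range was -1.502 to 0.004 in scaffold00043.g1582, -0.582 to 0.009 in scaffold00080.g2543, -0.294 to 0.027 in scaffold00096.g3627, -0.842 to 0.034 in scaffold00113.g4091, -0.841 to 0.287 in scaffold00214.g6287, -0.076 to 0.623 in scaffold00247.g6771 and -0.179 to 0.649 in scaffold00317.g8851. In each of the 7 the sign turned without red 24 h library 1, and in scaffold00317.g8851 also without blue 24 h library 3. Quantile normalization gave 0.209 and the same sum of FPKM gave 0.024 in scaffold00145.g4962. For blue 24 h minus white the range was -0.056 to 0.088 in scaffold00080.g2543 and -0.041 to 0.095 in scaffold00214.g6287. The same sum gave -0.158 and quantile normalization -0.219 in scaffold00080.g2543, and the same sum gave -0.152 in scaffold00214.g6287. For red 24 h minus white the range was -0.139 to 1.368 in scaffold00043.g1582, -0.262 to 0.866 in scaffold00214.g6287 and -0.451 to 0.063 in scaffold00247.g6831, where quantile normalization gave 0.080. Depth limits the 29 genes with under 30 fragments in some 12 h library.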
